A study of Oryza sativa with 20 samples.

Results

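The gene described here is gid1 of rice, annotated as LOC4338764, which encodes the soluble receptor of the plant hormone gibberellin. It is represented by 1 cDNA feature of the 6080 on the array, and 5926 of these features had a value in all 10 biological samples. The gene was chosen by its log2 ratios and ranks in these same samples, so its levels, folds and ranks are given as a description and no test is attached to them.

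Gibberellins are diterpenoid hormones that drive stem elongation, leaf growth and the mobilization of starch in the germinating grain. In rice the receptor GID1 binds active gibberellin in the nucleus, and the complex then holds the DELLA protein SLR1, a repressor of growth, so that the F-box protein GID2 can mark SLR1 for degradation. Loss of GID1 in rice gives severe dwarfs that do not respond to the hormone.

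Rice of the chilling-tolerant japonica line CT6748-8-CA-17 was grown to the S3 stage, and shoots were taken at 5 times between 0.5 and 24 h (0.5 and 2 h, then 6, 12 and 24 h) from seedlings at 10°C and from controls at 29°C. Chilled RNA carried Cy3, control RNA carried Cy5 and the 2 were hybridized together, in 2 independent biological replicates per time point on 10 slides. Every slide held the features in duplicate (spot set 1 and spot set 2), which gave gid1 4 spots per time point and 20 spots in all. A value is the log2 ratio of chilled over control within a slide, so that 1 is a 2-fold higher signal in the chilled shoots, and the submitters state that dyes were not exchanged on any slide.

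Both columns of replicate 2 at 2 h were multiplied by -1. As deposited, this replicate correlated at r = -0.43 with replicate 1 of the same time and below 0 with every other sample (r from -0.45 to -0.18), although its labels name the same dyes. Its direction is therefore not settled, and 2 h values are given with the other sign where they matter. Over all features the replicates of a time point correlated at r = 0.07 at 0.5 h and between 0.34 and 0.43 at the later times, and 53 to 194 features lacked a value in a column. The table holds ratios only, so neither signal over background nor the level of a marker of shoot tissue could be read from it. Of 8 symbols for photosynthesis genes of the shoot only RBCS, the small subunit of Rubisco, was found on the array, with mean log2 ratios from -0.47 to 0.39, and of 5 seed storage symbols only GLUA1, a glutelin, with -0.46 to 0.03.

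At 0.5 h the gid1 spots of replicate 1 read 3.60 and 1.65 in spot sets 1 and 2, and those of replicate 2 read 2.45 and 1.38. All 4 spots were thus higher in the chilled shoots, with spot set 1 above spot set 2 on both slides. The mean log2 ratio was 2.27 ± 0.50 (SD, n = 2), which is 4.82-fold.

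At 2 h replicate 1 gave 2.70 and 1.45 for gid1, and replicate 2, with its sign turned, gave 1.98 and 1.65. The mean was 1.95 ± 0.18 (SD, n = 2) or 3.86-fold, and the 2 slides lay closer together than at 0.5 h. With the sign of replicate 2 as deposited the slides pointed in opposite directions and the mean was 0.13.

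At 6 h replicate 1 gave 1.23 and 1.71, and replicate 2 gave 2.09 and 2.997. Here spot set 2 was the higher one on both slides, and all 4 spots were again above 0. The mean was 2.01 ± 0.76 (SD, n = 2), a ratio of 4.02-fold, and replicate 2 exceeded replicate 1 by 1.07, against a median gap of 0.34 between the replicates over all features.

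At 12 h replicate 1 read -0.06 and 1.91, and replicate 2 read 1.11 and 0.70. One spot was slightly below 0 and another well above it on the same slide. The slide means of 0.92 and 0.90 were nearly equal and averaged 0.91 ± 0.01 (SD, n = 2), or 1.88-fold, so that the small SD hides spots that lay 1.97 apart in replicate 1.

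At 24 h replicate 1 gave -0.29 and 1.10, and replicate 2 gave 0.30 and 2.92. Spot set 1 was near 0 on both slides and spot set 2 clearly above 0. The mean was 1.01 ± 0.86 (SD, n = 2), or 2.01-fold, with slide means of 0.40 and 1.61.

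**Figure D1:**
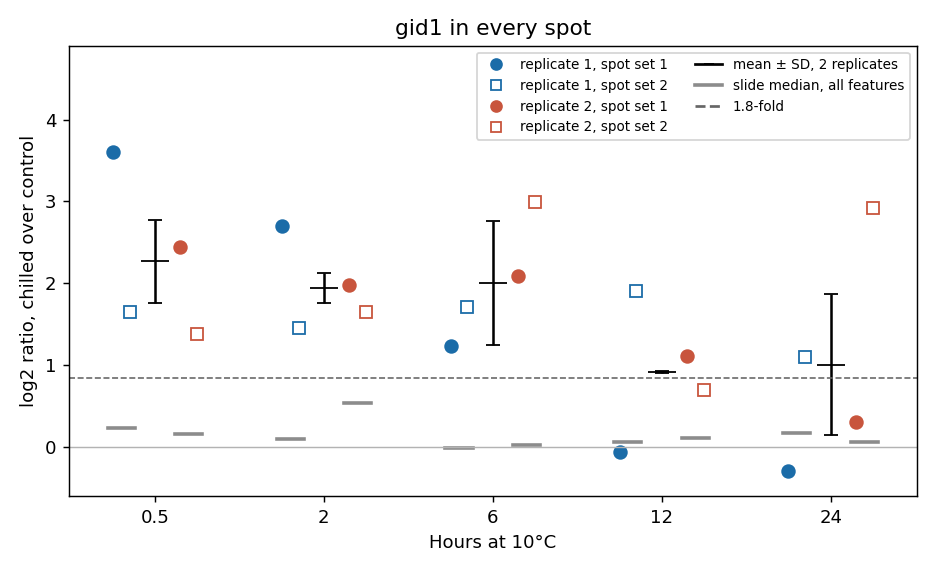
Log2 ratio of chilled over control for every gid1 spot (y axis) by hours at 10°C (x axis, equally spaced), with replicates in colour and spot sets as filled circles or open squares, black bars the mean ± SD of 2 replicates, grey bars the median of all features on a slide and the dashed line 1.8-fold. With the sign of replicate 2 at 2 h turned, 18 of the 20 spots are above 0. The 2 below it belong to spot set 1 of replicate 1 at 12 and 24 h.

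With the sign of replicate 2 at 2 h turned, 18 of the 20 gid1 spots were above 0. Of these spots, 16 reached 1.8-fold, the threshold used in the study, as did 9 of the 10 slide means. Over all its times the study listed fewer features at this threshold than passed here at any single time with the sign turned. The counts are not alike, as the study scaled the ratios of an array to a mean of 1. The mean ratios of all columns used here lay above 1. The list of the study named no gibberellin receptor, and the reason was not tested. The slide of gid1 below 1.8-fold was replicate 1 at 24 h, at 1.32-fold. The mean reached 1.8-fold at all 5 time points, and both replicates did so at 4 of them. In the order of their means the times ran 0.5, 6, 2, 24 and 12 h. The slide values of 0.5, 6 and 2 h overlapped, as did those of 24 and 12 h. Those of 24 h reached into the range of 6 h but stayed below both slides of 2 h and 0.5 h. These counts and this order rest on the turned sign. As deposited, the 2 h spots of replicate 2 read -1.98 and -1.65 and the 2 h mean was 0.13.

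The ratio of gid1 was then set against all features, since a higher share of features lay above 0 than below it. The median of all features was 0.14, 0.31, 0.02, 0.12 and 0.14 at the 5 times in order, and gid1 stood 2.13, 1.63, 1.99, 0.80 and 0.86 above it. A mean of 1.8-fold or more was found for 11.4% of features at 0.5 h, 16.8% at 2 h, 6.04% at 6 h, 9.47% at 12 h and 12.7% at 24 h. As this contrast was used to choose the gene, nothing is read from its own place past the threshold.

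By mean ratio gid1 ranked 20 of 5926 at 0.5 h, 22 at 2 h and 13 at 6 h. It was above the 99th percentile of all features at these 3 times, which lay at 1.75, 1.58 and 1.26. At 12 h it ranked 466 and at 24 h 508, where 7.86% and 8.57% of features were at its level or higher. The upper end of the ranking at 12 and 24 h was thus held by other features, with 99th percentiles of 1.61 and 1.73. With the sign of the second replicate as deposited, gid1 also ranked 508 at 2 h, among features of which only 6 then reached 1.8-fold.

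**Figure D2:**
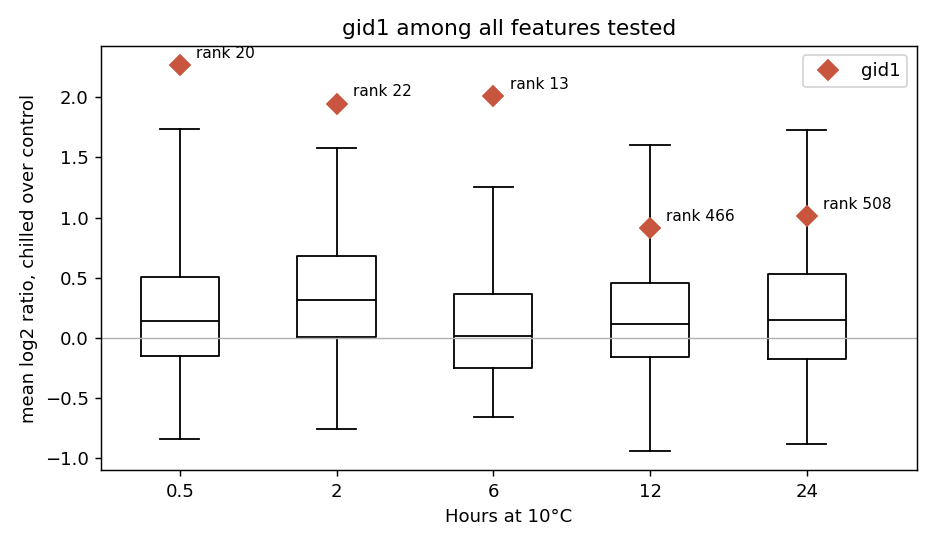
Mean log2 ratio of gid1 (diamonds, with its rank) against the distribution over 5926 features (boxes from the lower to the upper quartile with the median, whiskers from the 1st to the 99th percentile), by hours at 10°C. The diamond lies above the whisker at 0.5, 2 (sign of replicate 2 turned) and 6 h and inside it at 12 and 24 h.

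Single slides placed gid1 less evenly. Its rank was 10 and 89 in replicates 1 and 2 at 0.5 h, 8 and 222 at 2 h, and 27 and 18 at 6 h. At 12 h the ranks were 690 and 438, and at 24 h they were 2231 and 94. The widest gap was therefore at 24 h, where replicate 1 put gid1 at 0.23 above the median of its slide and replicate 2 at 1.55 above.

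Across the course, 42 features (0.709%) had a mean of 1.8-fold or more at all 5 time points. Among these, 3 carried a gene name, namely gid1, PDC, a pyruvate decarboxylase of alcoholic fermentation, and ML2, a mei2-like RNA-binding protein. The mean of gid1 over the 5 times was 1.63, rank 12 of all features, against 1.33 for PDC and 1.10 for ML2. Only 5 features were within the first 25 at 0.5, 2 and 6 h alike, gid1 included. With replicate 2 at 2 h as deposited, gid1 reached 1.8-fold at the other 4 times only. Its place among the 42 also rests on 12 and 24 h. With slides centred on their median it was at 0.82 at 12 h, below the 0.848 of 1.8-fold. With spot set 1 alone it was at 0.53 at 12 h and 0.008 at 24 h. With spot set 2 alone and the 2 h sign turned it passed at all 5 times.

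The next named features in the ranking differed from time to time. At 0.5 h the only named feature above gid1 was OsSPS3F, a sucrose-phosphate synthase, at 4.52, and the one below it was BGLU19, a beta-glucosidase, at 2.05. At 2 h, with the sign turned, gid1 was the highest of the 700 named features and OsSPS3F followed at 1.63. At 6 h OsSPS3F at 2.05 was next above and JAZ6, a repressor of jasmonate responses, next below at 1.66. The gap to OsSPS3F at 6 h was far smaller than the SD of gid1 itself. At 12 h gid1 was number 87 of the named features, between GER6, a germin-like protein, at 0.92 and TUB2, a beta-tubulin, at 0.91. At 24 h it was number 57, between the cellulose synthase gene CESA2 at 1.01 and OspolD2 at 0.998.

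The time course of gid1 depended on which of its duplicate spots was read. In spot set 1 the mean was 3.02 ± 0.82 at 0.5 h, 2.34 ± 0.51 at 2 h, 1.66 ± 0.61 at 6 h, 0.53 ± 0.83 at 12 h and 0.01 ± 0.42 at 24 h (SD, n = 2). The mean fell at each step, from 8.13-fold to 1.01-fold. Replicate 1 also fell at each step, but replicate 2 rose from 1.98 at 2 h, with its sign turned, to 2.09 at 6 h. In spot set 2 the mean was 1.51 ± 0.19, 1.55 ± 0.14, 2.35 ± 0.91, 1.30 ± 0.86 and 2.01 ± 1.29 at the same times. No decline is seen there, and all 10 values lay between 0.70 and 2.997, while those of spot set 1 ran from -0.29 to 3.60. Both courses are given with the sign of replicate 2 at 2 h turned. As deposited, its spots read -1.98 in spot set 1 and -1.65 in spot set 2.

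**Figure D3:**
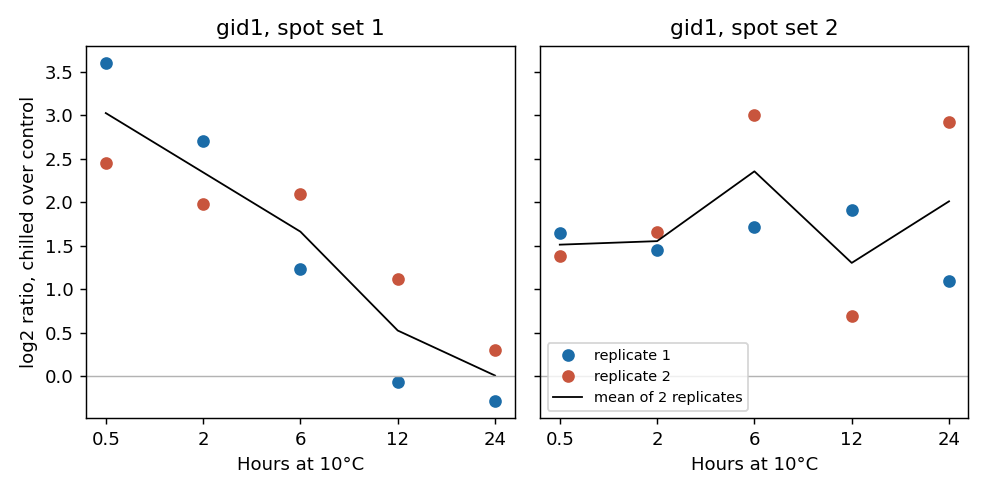
Log2 ratio of gid1, chilled over control (y axis), by hours at 10°C for spot set 1 (left) and spot set 2 (right), with points for each replicate and a line through the mean of 2 replicates. With the sign of replicate 2 at 2 h turned, spot set 1 falls from 3.02 at 0.5 h to 0.01 at 24 h. Spot set 2 then stays between 1.30 and 2.35.

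Averaged over both spot sets, gid1 was at 2.07 over 0.5, 2 and 6 h and at 0.96 over 12 and 24 h, a difference of 1.11 that ranked 33 among all features, whose median was 0.05. In spot set 1 this difference was 2.08, from 2.34 to 0.27. In spot set 2 it was 0.15, from 1.81 to 1.66. The decline in the mean of gid1, with the sign of replicate 2 at 2 h turned, therefore came almost wholly from spot set 1.

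Such disagreement was rare on these slides. The gap of 1.93 between the spot sets of gid1 in this difference compares with a median of 0.14 over 5492 features with all 20 values, and 99.9% of features had a smaller gap. The duplicate spots of gid1 differed by 1.24 on average over the 10 slides, against a median of 0.24, and 99.8% of features differed by less. Over the 10 slides the spot sets of gid1 correlated at r = -0.04, with 2.00% of features lower and a median of 0.80. Spot set 1 was the higher one on 5 slides and spot set 2 on the other 5, so neither was higher throughout. As the table holds no intensities, the signal behind these spots could not be compared.

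By spot set, the rank of gid1 among the 5492 features also diverged. In spot set 1 it was 9 at 0.5 h, 1 at 2 h and 18 at 6 h, then 1098 at 12 h and 3139 at 24 h. In spot set 2 it was 88, 61, 6, 172 and 22. In both sets gid1 was thus among the first 88 features at 0.5 and 6 h and, with the sign of replicate 2 turned, at 2 h. At 24 h it was near the top in one set and below the median in the other. As deposited, the replicates at 2 h pointed in opposite directions in both spot sets.

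Other genes assigned to the gibberellin pathway were then read from a list of symbols for biosynthesis, inactivation, signalling and targets. The list sets these groups, and whether its members respond to gibberellin was not tested. Of its 47 annotated genes, 13 were on the array, each by 1 feature: 1 of 9 for biosynthesis, 0 of 1 for inactivation, 4 of 19 for signalling with gid1 among them, and 8 of 18 targets. The DELLA gene, GID2 and the oxidases that make or remove active gibberellin were thus not read here. All 12 other members had a value in every sample. None of the 12 passed limma at an adjusted p of 0.05 at any time, where 2.48% of all features passed at 0.5 h, 0.253% at 2 h, 0.202% at 6 h, 0.371% at 12 h and 2.16% at 24 h. At an unadjusted p under 0.05 the counts were 3, 4, 2, 3 and 2 of 12, against 17.7%, 22.6%, 10.1%, 15.7% and 18.8% of all features.

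The medians of these 12 members were 0.17, 0.51, 0.38, 0.31 and 0.44 from 0.5 to 24 h, beside the medians of all features given above. Their means were above 0 in 7, 9, 10, 9 and 8 of 12, where 61.7%, 75.6%, 51.6%, 60.1% and 61.2% of all features were. The numbers at or above 1.8-fold were 0, 4, 1, 2 and 1 of 12, where 11.4%, 16.8%, 6.04%, 9.47% and 12.7% of all features were. With replicate 2 at 2 h as deposited, 0 of 12 reached 1.8-fold at that time and 4 were above 0. The highest of them at 0.5 h was at 0.81 and that of gid1 at 2.27. As gid1 was chosen by these same ratios, nothing is read from its place above the list. In no member was the mean of 0.5 or 6 h as high as in gid1. At 2 h this held with the sign turned, but with the sign as deposited EXPA2 at 0.80 and OSH15 at 0.14 were above gid1 at 0.13.

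**Figure D4:**
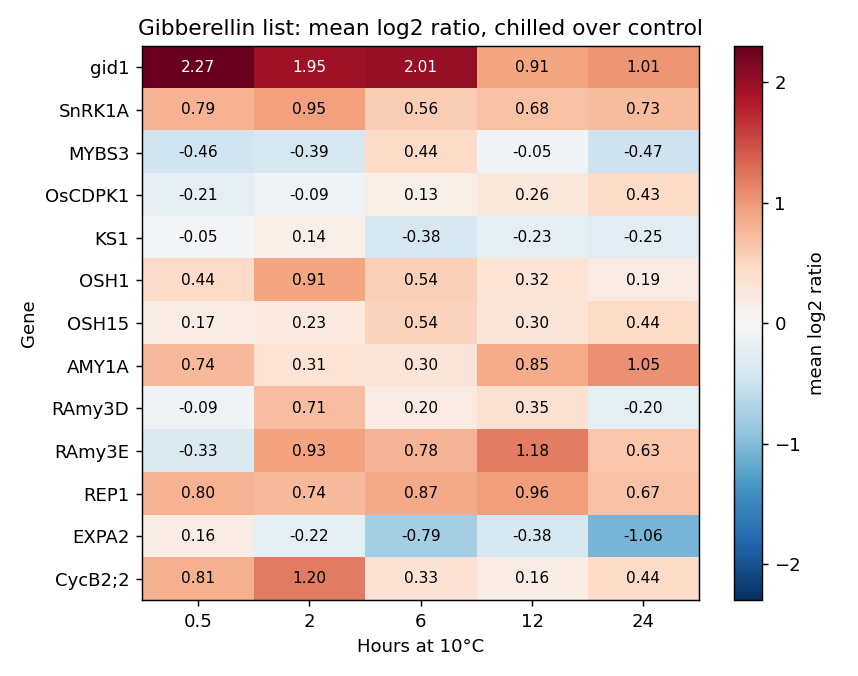
Mean log2 ratio of chilled over control (colour and printed value, 2 replicates) for the 13 features of the gibberellin list (rows) by hours at 10°C (columns). gid1, chosen by these same ratios, has the highest value of the list at 0.5 and 6 h. With the sign of replicate 2 turned it also has the highest at 2 h (EXPA2 as deposited). RAmy3E is highest at 12 h and AMY1A at 24 h.

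Among the signalling members, SnRK1A, a protein kinase of sugar starvation signalling, had means from 0.56 at 6 h to 0.95 at 2 h (adjusted p = 0.0907 by limma), and its 2 h value was -0.38 with replicate 2 as deposited. MYBS3, a MYB repressor of alpha-amylase genes, was at -0.46 at 0.5 h and 0.44 at 6 h. OsCDPK1, a calcium-dependent protein kinase matched by a synonym and not known for certain to be the kinase of gibberellin signalling, ran from -0.21 at 0.5 h to 0.43 at 24 h. The biosynthesis gene KS1, which codes for the ent-kaurene synthase that makes the precursor of gibberellins, stayed between -0.38 and 0.14 (its 2 h value as deposited was -0.35). All 4 were well below gid1 at 0.5 and 6 h, whereas at 2 h the distance rests on the sign of replicate 2. As gid1 was chosen by its ratios, this distance is a description only.

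Among the members listed as targets, the 3 alpha-amylase genes gave scattered values. These genes serve starch breakdown and belong to a family of similar sequence. AMY1A was at 0.74, 0.31, 0.30, 0.85 and 1.05, and its replicates at 12 h read -1.14 and 2.83. The means of RAmy3E ranged from -0.33 at 0.5 h to 1.18 at 12 h and those of RAmy3D from -0.20 at 24 h to 0.71 at 2 h, and their 2 h values as deposited were -0.25 and -0.43. REP1, a cysteine endopeptidase, lay between 0.67 and 0.96 at all times (lowest adjusted p = 0.159 by limma), but at -0.28 at 2 h with the sign as deposited. The expansin gene EXPA2, of a family that loosens cell walls, was at -1.06 at 24 h with both replicates below 0 (adjusted p = 0.119 by limma).

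The remaining members listed as targets are growth and division genes. Whether any member so listed responds to gibberellin was not tested. CycB2;2, a B-type cyclin of mitosis, was at 0.81 at 0.5 h and 1.20 at 2 h (adjusted p = 0.0688 by limma) and at 0.16 at 12 h. With replicate 2 as deposited its 2 h value was -0.28. The homeobox genes OSH1 and OSH15 of the shoot meristem lay between 0.17 and 0.91, the highest being OSH1 at 2 h, which was at -0.40 as deposited. Over the 10 samples CycB2;2 had the highest correlation with gid1 of the list, r = 0.53, and RAmy3E the lowest, r = -0.59, both as a description over samples that share time points and array level.

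The features whose course was most like that of gid1 were named by Pearson's r over the 10 biological samples, as a description with no p. Over 5925 features the median r was 0.01, 35 features had r of 0.8 or more, and 2 had 0.9 or more. The 10 highest among named features were ARF (0.92), the sucrose-phosphate synthase OsSPS4F (0.87), the cytosolic glyceraldehyde-3-phosphate dehydrogenase GAPC (0.84), the sugar transporter OsSWEET1a (0.84), the replication helicase subunit MCM7 (0.80), the lectin ML (0.80), the replication protein OsRPA14 (0.76), DPK3 (0.75), the peroxidase PRX74 (0.72) and the membrane carrier protein SCAMP6 (0.72).

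These features shared the shape of gid1 more than its height. ARF had means from 0.05 at 0.5 h to -0.61 at 24 h, and OsSPS4F from 0.14 at 6 h to -0.91 at 12 h. OsSWEET1a was closest in level, with 1.13, 1.14, 1.08, 0.49 and 0.40 at the 5 times and a root mean square difference from gid1 of 0.87 on the log2 scale. The replicates of OsSWEET1a at 24 h read -0.11 and 0.91 and those at 6 h 0.47 and 1.69. Replicate 2 was thus the higher one at both times, as for gid1, and replicate 1 was the higher in both genes at 0.5 h. At 2 h, with the sign turned, OsSWEET1a read 0.71 and 1.57 but gid1 2.08 and 1.82, and at 12 h they also ran opposite ways. As OsSWEET1a was picked by its correlation over these same slides, this likeness is no separate evidence.

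**Figure D5:**
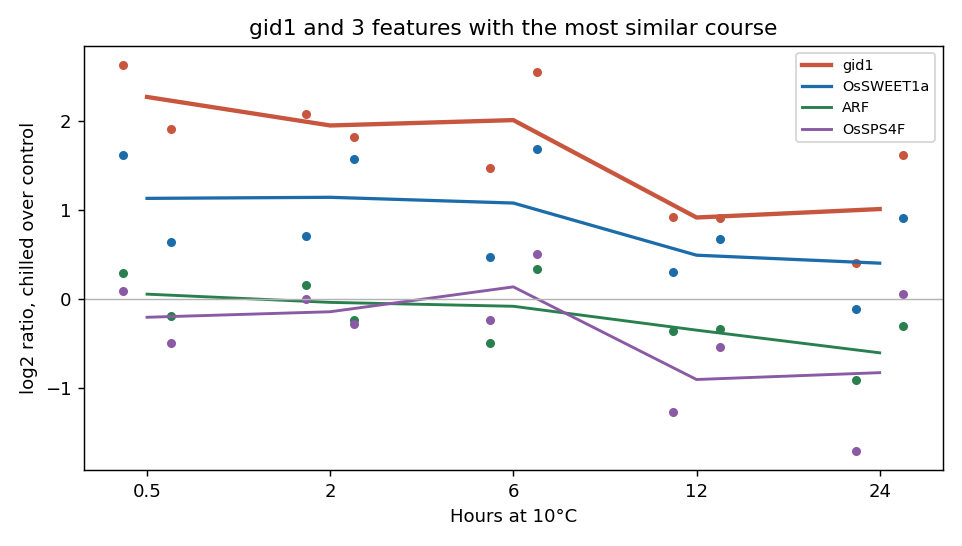
Log2 ratio of chilled over control by hours at 10°C for gid1, OsSWEET1a, ARF and OsSPS4F, with points for slide means (left, replicate 1, right, replicate 2) and lines for the mean of 2 replicates. All 4 genes are lower at 12 and 24 h than at 6 h, and ARF and OsSPS4F lie near or below 0.

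The list of like features depended on the spots used. Of the 10, 4 were again among the 10 highest with spot set 1 alone and 1 with spot set 2 alone. Without the 2 h samples 6 were again among them. The correlation of ARF with gid1 was 0.82 in spot set 1 and 0.43 in spot set 2, and that of SCAMP6 was 0.77 and 0.14.

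A bulk ratio of this kind cannot tell a change of transcript per cell from a change in the share of cells that hold it. The labels give 2 independent biological replicates per time, and the duplicate spots of a slide were not counted as replicates.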

How the data were processed

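The deposited table held log2 ratios of chilled over control for 20 columns. The authors subtracted the background from median intensities, took ratios in Acuity and scaled them to a mean of 1. Even so, the mean ratio as deposited was 13.8 and 14.5 in the 2 columns of replicate 2 at 2 h. With these multiplied by -1, the column means ran from 1.09 to 2.08. The genome build was not given in the sources used here. The second spot set of replicate 2 at 6 h carries a source name for 0.5 h and was kept at 6 h, as its title and protocols give.

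On the log2 scale, the spots of a slide were averaged first and then the 2 replicates. For background, limma 3.58.1 in R 4.3.3 (lmFit and eBayes, tested on simulated data) was fitted to 5926 features with a value in all 10 samples, a mean per time point was tested against 0, two-sided, and p-values were adjusted by Benjamini-Hochberg at 0.05 over all features of a time point. Tables were handled in Python 3.11.15 with pandas 2.3.3 and numpy 2.4.6. The number of arrays limits the precision.

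Probes were named through the platform annotation and RefSeq (ASM3414082v1): 4172 features had 1 gene, 97 several and 1811 none, and 706 a gene name. Named genes were gid1, the gibberellin list members on the array, the 10 named features with the highest Pearson correlation and the named features next in rank. PDC, ML2 and the other hormone receptors were added after their annotation or values had been seen. The members and lists were chosen with earlier results of these data known. Protein relatives of gid1 were not analysed here.

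Alternatives were median-centred slides, each spot set alone, features with all 20 values, robust variance, a random block for spots, a replicate block, the conflicting 6 h column left out, linear averaging, the 2 h sign as deposited, other fold rules, other likeness measures and each replicate left out.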

Additional observations from a re-analysis of the deposited data

Results flagged for a closer look

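Among the other members of the gibberellin list, MYBS3 and OsCDPK1 had time points of opposite sign in both replicates. The share of all features with such time points was not counted, so nothing is read from this about the list. The differences given are between the highest and lowest mean of each gene and were not tested. Groups of 2 samples are too small for a test of outlying samples. MYBS3 was at 0.44 at 6 h (0.06 and 0.83 in replicates 1 and 2) and at -0.47 at 24 h (-0.60 and -0.35), a difference of 0.92. OsCDPK1 was at 0.43 at 24 h (0.55 and 0.32) and at -0.21 at 0.5 h (-0.03 and -0.39), a difference of 0.64. Its spots at 0.5 h ran from -0.41 to 0.03.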

How the results depend on the processing

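The mean of gid1 stayed above 0 under every alternative run. With slides centred on their median it was 1.63 at 2 h and 0.82 at 12 h, the latter below 1.8-fold (0.848). Averaged as linear ratios it was 1.09 at 12 h, and its rank at 6 h was 22. With spot set 1 alone the mean was 3.02, 2.34, 0.53 and 0.008 at 0.5, 2, 12 and 24 h and the rank 1168 at 12 h and 3290 at 24 h. With spot set 2 alone the mean was 1.51, 1.55, 1.30 and 2.01 at those times and the rank 105 at 0.5 h and 185 at 12 h. With the 2 h sign as deposited the mean was 0.13, the rank 508, and 6 features reached 1.8-fold. Without the conflicting 6 h column the rank was 21. Leaving out each replicate gave gid1 means of 1.91 to 2.62, 1.82 to 2.08, 1.47 to 2.54, 0.90 to 0.92 and 0.40 to 1.61 from 0.5 to 24 h in order, and ranks of 10 to 89, 8 to 222, 18 to 27, 438 to 690 and 94 to 2231.

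Features at 1.8-fold numbered 677, 995, 358, 561 and 750 at the 5 times. With centred slides they were 427 at 0.5 h and 380 at 2 h. A fold rule of 1.5 gave 1261, 1843, 861, 1104 and 1339, a rule of 2 gave 179 at 6 h and 373 at 12 h, and the rule in each replicate gave 303, 303, 131, 213 and 300. Leaving out each replicate gave 837 to 1124, 338 to 2026, 321 to 726, 537 to 805 and 657 to 1157.

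Features called by limma numbered 147, 15, 12, 22 and 128. Centred slides gave 52, 0, 7 and 8 at 0.5, 2, 6 and 12 h. Spot set 1 gave 60, 51, 3, 7 and 81, and spot set 2 gave 0, 0, 2, 1 and 60. The 2 h sign as deposited gave 0 at 2 h, and the 6 h column left out gave 5 at 6 h. Robust variance gave 126 at 2 h and 40 at 12 h, features with all 20 values 164 at 2 h and 3 at 6 h, and the random block 13, 35, 5, 199 and 221. Leaving out each replicate, with the lone sample assumed to vary like the other groups, gave 18 to 67, 3 to 181, 0 to 25, 14 to 52 and 5 to 73. Whether the replicate numbers pair the samples is not settled. The difference between replicates 1 and 2 over all features was correlated between times. It gave r from -0.30 to 0.34, with 5 of 10 pairs of times above 0.1. Among 6, 12 and 24 h r was between 0.24 and 0.34. With the replicate block the calls were 189 at 2 h, 2 at 6 h, 7 at 12 h and 34 at 24 h.

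With both replicates kept, no gibberellin list member was called except with the random block. It called 1 at 12 h (REP1, adjusted p = 0.0369 by limma) and 1 at 24 h (EXPA2, adjusted p = 0.0424 by limma). The same setting called 199 and 221 of 5926 features at these times. Without replicate 1 at 12 h AMY1A was at 2.83, the value of 1 slide, whereas replicate 1 had read -1.14. Of the 10 features most like gid1, 5 were again among the 10 by Spearman's rho, 6 without the 2 h samples, 4 with spot set 1 and 1 with spot set 2, the last 2 settings having been chosen after the data were seen. The causes were not tested. Without intensities no limit from dim spots can be given.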

Other observations

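Receptors of other hormones on the array were read for comparison, from a list drawn up after the annotation had been seen, with 4 genes on 5 features. None was called by limma at an adjusted p of 0.05, and 1, 2, 2, 2 and 1 of 5 had an unadjusted p under 0.05 at the 5 times from 0.5 to 24 h, against 17.7%, 22.6%, 10.1%, 15.7% and 18.8% of all features. The jasmonate receptor gene COI2 had 2 features with unlike values. One was at 0.90, 1.25, 1.01, 0.74 and 1.16 at the 5 times (lowest adjusted p = 0.0506 by limma, at 24 h), and the other lay between -0.31 and 0.14. COI1B, another F-box protein of jasmonate perception, was at 0.50, 0.997, 0.93, 0.81 and 0.66, and COI1A lay between 0.00 and 0.36. The ethylene receptor gene ERS1 lay between -0.37 and 0.02. With the 2 h sign as deposited the higher COI2 feature was at -0.27 and COI1B at -0.28 at 2 h.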
